A study of Homo sapiens with 10 samples.

Results

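The 56 genes described here make the machinery that builds ribosomes: the transcription factor MYC, subunits and factors of RNA polymerase I (Pol I), and proteins of the nucleolus that modify, cut and assemble the preribosomal RNA. They were taken as a fixed list of gene symbols, chosen with earlier results of these data known. Counts of the 56 genes beside shares of all genes are therefore a description and not a test of the set. All 56 were found among the 36432 symbols of the expression table, and all 56 were among the 13418 genes that could be tested, those that reached 1 TPM in 2 libraries or more. TPM gives the transcripts of a gene relative to all transcripts of a library, on a fixed total.

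RNA was sequenced from MDA-MB-231 cells, a human triple-negative breast cancer line, to ask how glucose starvation and the transcription factor BACH1, which is regulated by heme, act on gene expression. The WT groups were 2 individual Ctrl clones and the BACH1 KO groups were 3 individual clones isolated after Crispr editing of BACH1. The cells of each clone were kept at 4.5 or at 0 g/liter glucose over 40 hours, which gave 10 libraries, 1 per clone and glucose level. All were the same line, and no other agent is labelled. A clone can differ from its neighbours apart from BACH1, and a genotype rests here on 2 or 3 clones.

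A cell makes ribosomes in the nucleolus. Pol I, placed on the ribosomal DNA by UBTF and RRN3, transcribes a long precursor RNA, box C/D and box H/ACA small nucleolar ribonucleoproteins (snoRNPs) guide its methylation and pseudouridylation, the small subunit (SSU) processome cuts and folds the part that becomes the 40S subunit, and a separate set of factors assembles the 60S subunit. MYC binds E-boxes in the promoters of many of these genes and is a well-known activator of them. The libraries were made from poly-A RNA, so that messenger RNAs of these factors were measured and ribosomal precursor RNA was not.

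To show the element by which MYC and related factors bind, the palindrome CACGTG was searched in promoters. A promoter was the 300 bases around a start of a gene (250 before and 50 after, RefSeq, GRCh38.p14). Of the 56 genes, 46 matched the promoter table, and 20 of these (43.5%) held at least 1 CACGTG. The share was 12.6% for the 9860 tested genes that matched and 8.77% for all 27305 genes with a promoter. A gene with several promoters counted if any of them held the palindrome. CACGTG was present in 6 of 17 matched genes that were lower without glucose in either genotype and in 14 of 29 that were not, and in 0 of 5 Pol I genes. RRS1, URB2, RRP1B, BOP1, DDX18 and POLR1E were lower in at least one genotype but did not match and were not searched. These counts therefore leave out some of the largest falls and do not compare the falling genes as a whole. Windows of 30 bases from 4 genes whose mRNA was lower without glucose in both genotypes and from 3 genes whose mRNA was not called are shown with the E-box in capitals, read 5′ to 3′ on the strand of the gene (1 of 2 E-boxes for NOP10 and UTP18). A match is a description of the letters and was not tested for binding.
MRTO4 (60S assembly, chr1:19251807-19251836, plus strand): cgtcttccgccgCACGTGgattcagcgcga
PES1 (60S assembly, chr22:30591880-30591909, minus strand): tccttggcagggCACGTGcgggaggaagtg
UTP20 (SSU processome, chr12:101280083-101280112, plus strand): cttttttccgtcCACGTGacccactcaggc
LTV1 (40S maturation, chr6:143843354-143843383, plus strand): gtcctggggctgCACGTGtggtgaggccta
NOP10 (box H/ACA snoRNP, chr15:34343130-34343159, minus strand): gaaattgacgaaCACGTGacgcggtcgggc
UTP18 (SSU processome, chr17:51260538-51260567, plus strand): gcagcgaggttcCACGTGagcgcctgcgtt
FBL (box C/D snoRNP, chr19:39846356-39846385, minus strand): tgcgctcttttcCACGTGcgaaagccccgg

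TPM is a share of the transcripts of a library and does not record how deeply it was sequenced. The depth is therefore unknown, and no counting interval is given. The BACH1 transcript was at 8.13 to 8.61 TPM in the WT clones and at 2.84 to 5.18 TPM in the KO clones with glucose, and the genotypes overlapped without glucose (19.7 to 20.6 TPM in WT and 12.6 to 24.0 TPM in KO). The knockout was identified by Western blot, and the transcript does not show whether the protein was lost. HMOX1, a gene that BACH1 is known to repress, was at 6.58 to 8.78 TPM in WT and 274 to 470.4 TPM in KO with glucose, and at 532 to 568 TPM in WT and 1356 to 2033 TPM in KO without. All 8 markers listed for MDA-MB-231 were at 1 TPM or more in all 10 libraries. Of 9 markers listed as absent, GATA3 (10.8 to 40.2 TPM) and EPCAM (6.72 to 11.3 TPM) were present in all 10 and the other 7 stayed under 1 TPM. Mitochondrially encoded genes took 22.4 to 29.7% of the TPM, and KO clone 1 stood apart with 29.1% at 0 g/liter, where the other 4 clones had 22.4 to 24.7%.

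In the TPM as deposited, many ribosome assembly genes were lower without glucose while MYC itself rose. In WT cells, 1 of the 56 genes was called higher (MYC) and 20 were called lower by limma at an adjusted p under 0.05, against 7.47% of all genes tested called higher and 15.9% called lower. At an unadjusted p under 0.05, 33 of the 56 differed in WT, beside 37.5% of all genes, and 31 in KO, beside 41.4%. In BACH1 KO cells, 1 was higher (MYC) and 21 were lower, against 9.05% and 19.9% of all genes. The called genes that fell were mostly 60S assembly factors and Pol I components, whereas the abundant nucleolar chaperones and the box C/D proteins had no called member. In these bulk samples, fewer cells of a type and less RNA per cell cannot be told apart.

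Of the 23 genes lower in either genotype, 18 were lower in both, POLR1B and DDX18 were called in WT only, and GAR1, HEATR1 and NAT10 were called in KO only. None of these 5 was called by limma's test of the interaction. With the clone as a block in limma, which compares a clone with itself, DDX18 was also called in KO (adjusted p = 0.0215) and GAR1, HEATR1 and NAT10 in WT (adjusted p = 0.0123, 0.0422 and 0.0144), which leaves POLR1B (adjusted p = 0.0523 in KO). The median log2 fold change of the 56 genes was -0.36 in WT, beside -0.17 for all genes tested, and -0.28 in KO, beside -0.15. In 45 genes both WT libraries without glucose lay below both with glucose, and in 4 above, beside 50.6% and 24.8% of all genes. In KO cells, 29 genes lay below and 3 above, beside 27.7% and 11.8%.

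The size of this fall depends on how the libraries are scaled. With median-ratio scaling, which brings the median change of all genes to 0.00 on the log2 scale in both genotypes, 7 genes were lower in WT (12.5%, beside 6.07% of all genes) and 5 in KO (8.93%, beside 9.55% of all genes), and the medians of the 56 genes were -0.175 and -0.11. The KO share was thus at the background. Over all genes, the split of higher and lower calls moved from 1002 and 2136 to 1364 and 815 in WT, and from 1214 and 2664 to 1703 and 1282 in KO. The 7 genes still called lower in WT were RRP1B, RRS1, DDX56, GRWD1, MRTO4, PPAN and URB2, and the 5 in KO were RRP1B, RRS1, DDX56, PPAN and URB2. All of them are 60S assembly genes.

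The number of calls also rests on few libraries. Without WT clone 1 or WT clone 2 at 4.5 g/liter, 4 genes each were lower in WT, beside 3.21% and 3.03% of all genes, and without these clones at 0 g/liter, 7 and 8 were, beside 3.62% and 5% of all genes. Each of these fits leaves 1 WT library at a glucose level, which is assumed to vary like the other groups. In KO cells, 10 genes (17.9%) were lower without clone 2 at 0 g/liter, beside 15.7% of all genes, and 11 (19.6%) without clone 2 or clone 3 at 4.5 g/liter, beside 12% and 14.2%. RRS1, URB2, RRP1B and PPAN kept their calls in both genotypes in all 10 fits. When the clone entered limma as a block, so that a clone was compared with itself, 32 genes were lower in WT and 31 in KO, beside 28.6% and 31.9% of all genes, and 2 were higher in each, beside 12.4% and 14.6%.

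**Figure D1:**
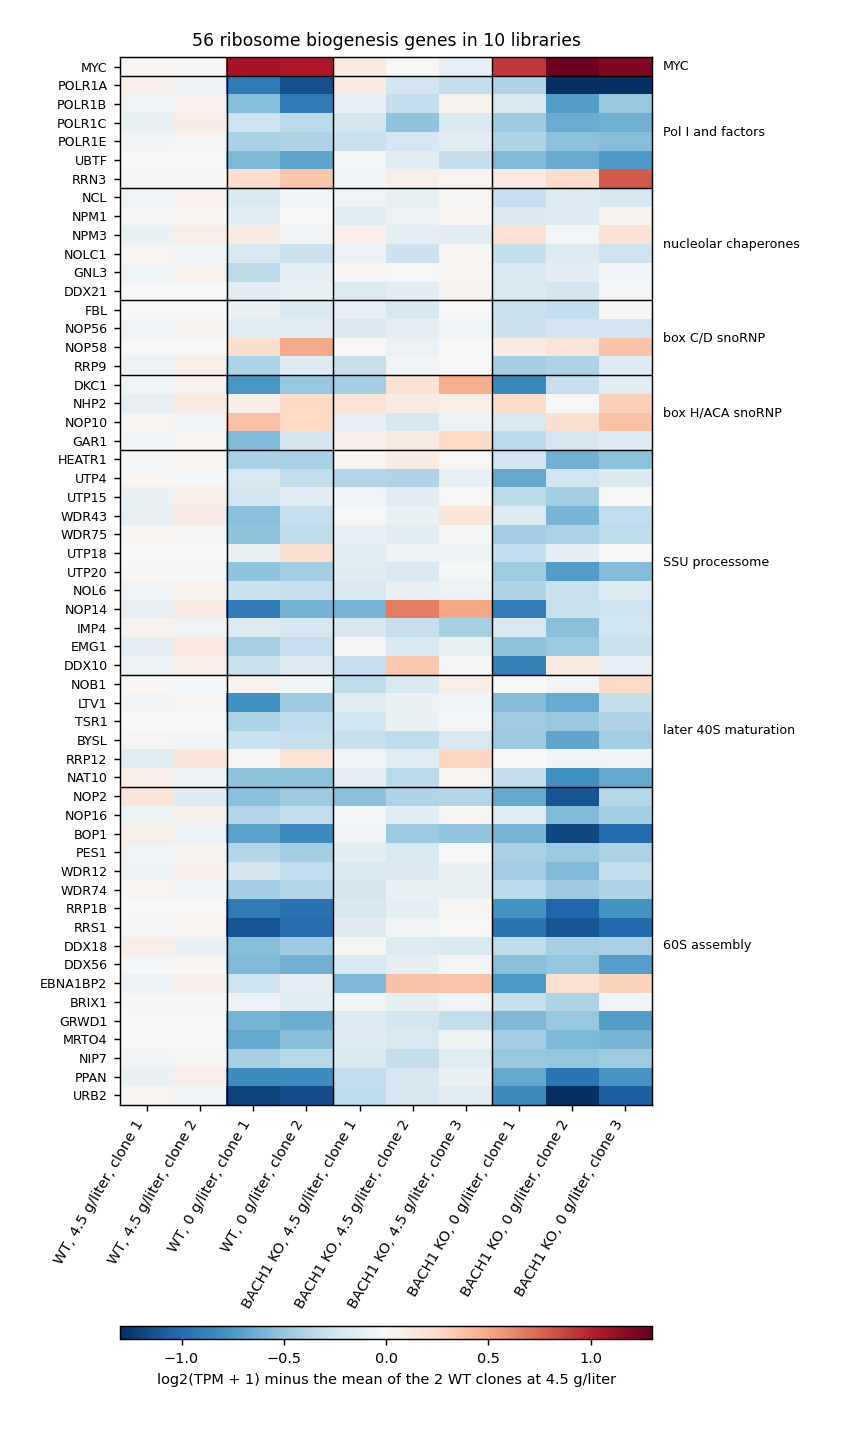
Each row is 1 of the 56 genes, ordered by role, and each column is 1 of the 10 libraries. Colour gives log2(TPM + 1) minus the mean of the 2 WT clones at 4.5 g/liter, with blue for lower and red for higher. MYC is red in all 5 libraries without glucose, and the 60S assembly rows RRS1, URB2 and RRP1B are blue in all 5.

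MYC, the activator at the head of this program, was at 104 and 99.8 TPM with and 215 and 212 TPM without glucose in WT. The KO clones held 111, 102 and 94.7 TPM with and 194, 249 and 237 TPM without glucose. All 5 libraries without glucose lay above all 5 with glucose. The log2 fold change was 1.06 in WT (standard error 0.13, adjusted p = 0.00125 from limma) and 1.13 in KO (standard error 0.11, adjusted p = 0.000218 from limma), a 2.09-fold rise of TPM + 1 in WT. The response did not differ detectably between the genotypes, with a difference of 0.07 (95% interval -0.32 to 0.45). The call was kept in both genotypes without each library in turn, where the log2 fold change lay between 1.03 and 1.09 in WT and between 1.06 and 1.24 in KO, and under each scaling tried.

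MXD1, which pairs with MAX on the same E-boxes and represses, was at 1.87 and 1.88 TPM with and 14.8 and 15.8 TPM without glucose in WT. BACH1 KO cells had 2.29, 2.07 and 3.76 TPM with and 16.7, 18.6 and 15.4 TPM without glucose, and no library without glucose overlapped one with glucose. Its log2 fold change was 2.50 in WT (adjusted p = 0.00023 from limma) and 2.29 in KO. MXD3, another member of that family, was at 26.6 and 29.3 TPM with and 8.49 and 12.4 TPM without glucose in WT, and in KO at 26.2, 38.2 and 29.1 TPM with and 10.5, 10.2 and 8.92 TPM without glucose. It was lower in every clone, with log2 fold changes of -1.36 and -1.55 (adjusted p = 0.00316 and 0.000469 from limma). MXD1 and MXD3 kept their calls without each library in turn. Of 16 tested partners and antagonists of MYC, 3 were higher in each genotype, and 5 were lower in WT and 4 in KO, with medians of -0.23 in both. For all genes the shares were 7.47% and 9.05% higher and 15.9% and 19.9% lower. Under the clone block 3 and 5 were higher and 6 and 6 lower, beside 12.4% and 14.6% higher and 28.6% and 31.9% lower. With median-ratio scaling 3 were higher and 2 lower in WT and 6 higher and 2 lower in KO, with medians of -0.05 and -0.07. In that fit, 1364 and 1703 of all 13418 genes were higher, and 6.07% and 9.55% were lower. RUVBL1 and RUVBL2, the paired ATPases that bind MYC and also assemble box C/D snoRNPs, had log2 fold changes of -0.59 and -0.43 in WT and of -0.51 and -0.32 in KO. RUVBL1 lost its WT call without 3 of the 4 WT libraries, all but WT clone 2 at 0 g/liter, and RUVBL2 lost it without each of the 4 (adjusted p up to 0.0860 from limma). RUVBL2 also lost both calls with median-ratio scaling (log2 fold changes -0.24 and -0.16).

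**Figure D2:**
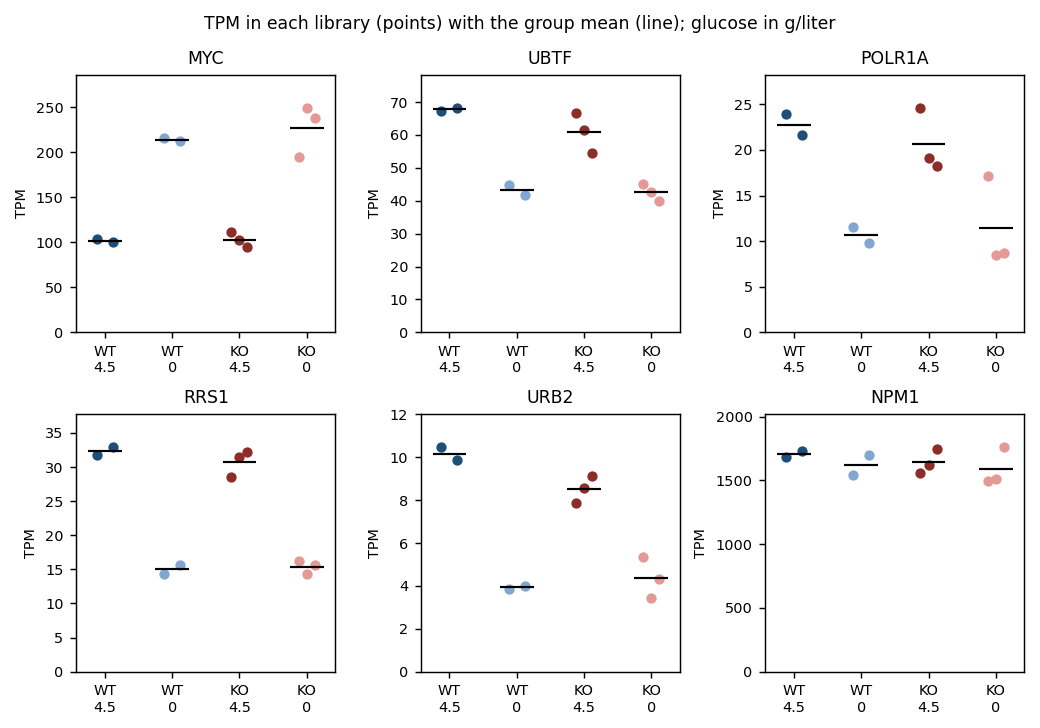
TPM (vertical axis, from 0) of 6 genes in each library, with WT and BACH1 KO (KO) at 4.5 and 0 g/liter glucose on the horizontal axis. Points are clones and the line is the group mean. MYC rises from about 95 to 111 TPM with glucose to 194 to 249 TPM without, RRS1 and URB2 fall with no overlap, and NPM1 overlaps.

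The Pol I machinery had 4 of 6 genes lower in WT and 3 of 6 in KO, beside 15.9% and 19.9% of all genes, with none higher. POLR1A, the largest subunit of Pol I, was at 23.9 and 21.7 TPM with and 11.6 and 9.78 TPM without glucose in WT. For the KO clones the values were 24.6, 19.1 and 18.2 TPM with and 17.1, 8.47 and 8.68 TPM without glucose. The groups did not overlap in either genotype, and KO clone 1 kept the highest level without glucose. The log2 fold change was -1.03 in WT (standard error 0.29, adjusted p = 0.0341 from limma) and -0.86 in KO (standard error 0.24, adjusted p = 0.0263 from limma). Leaving out any of the 4 WT libraries ended the WT call (adjusted p up to 0.160), and the KO call was lost without KO clone 1 or 2 at 4.5 g/liter or clone 2 or 3 at 0 g/liter (highest adjusted p 0.0855).

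UBTF, which bends and marks the ribosomal DNA promoter for Pol I, was at 67.4 and 68.1 TPM with and 44.8 and 41.8 TPM without glucose in WT. In KO it was at 66.8, 61.7 and 54.7 TPM with and 45.1, 42.7 and 40.1 TPM without glucose. Every library without glucose was below every library with glucose. The log2 fold change was -0.64 in WT (adjusted p = 0.007 from limma) and -0.51 in KO (adjusted p = 0.00551 from limma). The WT call was lost without either WT library at 4.5 g/liter or WT clone 2 at 0 g/liter (highest adjusted p 0.0600), and the KO call was kept in all 10 such fits.

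POLR1B, the second largest subunit, was at 20.6 and 22.3 TPM with and 14.3 and 10.9 TPM without glucose in WT. The KO clones held 19.8, 17.1 and 22.2 TPM with and 18.4, 12.6 and 15.0 TPM without glucose. The WT groups were apart and the KO groups overlapped, with the smallest difference in KO clone 1. It was called in WT (log2 fold change -0.73, adjusted p = 0.0294 from limma) but had -0.35 in KO (adjusted p = 0.137), and the difference in response was 0.38 (95% interval -0.20 to 0.96, not called). POLR1E, a subunit that helps Pol I initiate and elongate, had log2 fold changes of -0.41 and -0.28 and was called in both. POLR1B and POLR1E lost the WT call without each of the 4 WT libraries (adjusted p up to 0.175), and POLR1E lost the KO call without 8 of the 10 libraries, all but KO clone 1 at either level. POLR1C, a subunit shared with Pol III, had log2 fold changes of -0.31 and -0.26 and was not called.

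RRN3, the factor that links Pol I to its promoter and is the target of growth signalling, had positive values. RRN3 was at 11.6 and 11.4 TPM with and 13.6 and 15.1 TPM without glucose in WT, and in KO at 11.2, 12.1 and 11.7 TPM with and 12.5, 13.7 and 20.7 TPM without glucose. All 5 clones had more RRN3 mRNA without glucose, and KO clone 3 had the most. The log2 fold changes of 0.29 and 0.36 were not called (adjusted p = 0.333 and 0.137 from limma). The copy RRN3P3 reached 8.11% of the mean TPM of RRN3, and reads could be split between them. With median-ratio scaling, none of the 6 Pol I genes was called lower in either genotype, and the median log2 fold change of these 6 genes was -0.34 in WT and -0.16 in KO instead of -0.52 and -0.32.

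Of 35 other tested genes of Pol I, its promoter factor SL1 and Pol III, 0 were higher in either genotype, 5 were lower in WT and 7 in KO, with medians of -0.27 and -0.18. The lower counts are at the background of 15.9% and 19.9% of all genes, and 7.47% and 9.05% of all genes were higher. The Pol III factor subunits GTF3C1 and GTF3C2 had log2 fold changes of -0.57 and -0.57 in WT and the SL1 subunit TAF1B -0.62, and all 3 were also lower in KO (-0.68, -0.53 and -0.56). Each of these 3 WT calls was lost without either WT clone at 4.5 g/liter and without WT clone 1 at 0 g/liter, those of GTF3C2 and TAF1B also without WT clone 2 at 0 g/liter, and that of TAF1B also without KO clone 3 at 4.5 g/liter, with adjusted p up to 0.232. The KO call of TAF1B was lost without KO clone 2 at either level or clone 3 at 4.5 g/liter, with adjusted p up to 0.0744. With median-ratio scaling, 0 of the 35 were lower in WT and 2 in KO, beside 6.07% and 9.55% of all genes. In KO 4 were higher in that fit, beside 1703 of all 13418 genes. With the block, 14 were lower in each genotype, beside 28.6% and 31.9% of all genes.

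The nucleolar chaperones and abundant nucleolar proteins had no call in either direction. NPM1, nucleophosmin, the most abundant of the 56 with a mean of 1634 TPM, was at 1680.1 and 1732 TPM with and 1543 and 1697 TPM without glucose in WT. BACH1 KO cells had 1555, 1618 and 1749 TPM with and 1499, 1509 and 1758 TPM without glucose. The groups overlapped in both genotypes, and the log2 fold changes of -0.08 and -0.05 were smaller in size than the medians of all genes tested. The 95% interval of the change was -0.33 to 0.17 in WT and -0.25 to 0.16 in KO, so that a fall of the size seen for RRS1 lies outside it.

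NOLC1, which carries snoRNPs to the nucleolus, had the largest change of this group in WT. It was at 211 and 199 TPM with and 177 and 168 TPM without glucose in WT, and in KO at 195, 169 and 207 TPM with and 165, 181 and 169.9 TPM without glucose. The WT groups were apart, KO clone 2 was higher without glucose, and the log2 fold changes of -0.24 and -0.14 were not called. NPM3, a partner of NPM1, had the smallest change in WT (log2 fold changes 0.03 and 0.18 in KO). It was at 32.7 and 37.2 TPM with and 37.7 and 33.7 TPM without glucose in WT, and in KO at 36.6, 32.1 and 31.7 TPM with and 40.2, 34.5 and 39.8 TPM without glucose, and the groups overlapped in both genotypes. NCL, nucleolin, had log2 fold changes of -0.12 and -0.19, the helicase DDX21 -0.13 and -0.06, and the GTPase GNL3 -0.24 and -0.13. The block called GNL3 lower in WT (adjusted p = 0.0448) and NCL in KO (adjusted p = 0.0314). The direction of this group depends on the scaling: the median log2 fold changes of -0.12 in WT and -0.10 in KO became 0.07 and 0.07 with median-ratio scaling, while quantile normalization called NCL lower in both genotypes and NPM1 in KO.

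The box C/D proteins, which hold the methylation guides, also had no call. NOP58, a core protein, was at 100.1 and 99.4 TPM with and 116 and 141 TPM without glucose in WT. For the KO clones the values were 100.4, 94.6 and 99.3 TPM with and 107, 112 and 129.8 TPM without glucose. It was higher without glucose in all 5 clones, with no overlap in either genotype. The log2 fold changes of 0.35 and 0.24 missed the threshold (adjusted p = 0.0715 and 0.111 from limma). It was called higher under the clone block in WT (adjusted p = 0.0295) and with median-ratio scaling and quantile normalization in both genotypes. FBL, fibrillarin, the methyltransferase of the complex, was at 267 and 268 TPM with and 252 and 233 TPM without glucose in WT. In KO it was at 247, 229.8 and 268 TPM with and 219, 216 and 269.8 TPM without glucose, and KO clone 3 was not lower without glucose. Its log2 fold changes were -0.14 and -0.08, those of NOP56 -0.15 and -0.14, and those of the U3-specific protein RRP9 -0.29 and -0.22. Of these core proteins, NOP58 was higher and NOP56 lower without glucose in every clone, without a call for either. The median of the 4 genes was -0.15 in WT and -0.11 in KO, and it turned to 0.04 and 0.06 with median-ratio scaling.

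Of the 4 box H/ACA proteins, which guide pseudouridylation, 0 were called in WT and GAR1 was lower in KO. DKC1, dyskerin, the pseudouridine synthase, was at 197 and 212 TPM with and 121 and 145 TPM without glucose in WT. The KO clones held 149.7, 233 and 283 TPM with and 114, 166 and 184 TPM without glucose. Every clone was lower without glucose, but the clones started at different levels, KO clone 1 lowest and KO clone 3 highest. The log2 fold changes of -0.63 and -0.50 were not called (adjusted p = 0.153 and 0.146 from limma) and were called under the clone block (adjusted p = 0.00156 and 0.0012).

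NHP2, the smallest change of the group, was at 110.1 and 128 TPM with and 126 and 142 TPM without glucose in WT, and in KO at 134, 128 and 126 TPM with and 141, 119 and 147 TPM without glucose. NHP2 was higher without glucose in 4 clones and lower in KO clone 2, and was not called (log2 fold changes 0.17 and 0.06). GAR1 was at 63.0 and 66.4 TPM with and 43.0 and 54.7 TPM without glucose in WT, and in KO at 67.9, 70.2 and 77.4 TPM with and 50.9, 55.6 and 57.6 TPM without glucose. It was lower without glucose in every clone, with log2 fold changes of -0.41 in WT (adjusted p = 0.0545 from limma) and -0.39 in KO (adjusted p = 0.027 from limma). The KO call was lost without KO clone 1 or 2 at 0 g/liter or KO clone 2 or 3 at 4.5 g/liter (highest adjusted p 0.0879), and under the clone block GAR1 was called in WT too. NOP10 had log2 fold changes of 0.32 and 0.27 and was not called, so that within 1 complex DKC1 and GAR1 had negative and NHP2 and NOP10 positive values. The median of the 4 was -0.12 in WT and -0.16 in KO, and it turned to 0.07 and 0.00 with median-ratio scaling.

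The SSU processome had 2 of 12 genes lower in WT, WDR75 and UTP20, and 3 in KO, these and HEATR1, with none higher, which is near the 15.9% and 19.9% of all genes. Of the 12, 11 were negative in WT and 12 in KO, with medians of -0.33 and -0.31. Under the clone block, 7 of the 12 were lower in each genotype, beside 28.6% and 31.9% of all genes, and with median-ratio scaling none was. UTP20, a large scaffold protein, had log2 fold changes of -0.49 and -0.45, and WDR75, which also acts in Pol I transcription, -0.43 and -0.31. Both lost the WT call without each of the 4 WT libraries (adjusted p up to 0.167). In KO, WDR75 lost its call without 7 of the 10 libraries, namely both WT clones at 4.5 g/liter and all KO libraries but clone 3 at 0 g/liter (highest adjusted p 0.0952), and UTP20 lost it without KO clone 3 at 4.5 g/liter (adjusted p = 0.050). HEATR1, which also binds Pol I, had -0.42 (not called) and -0.51, a KO call that was kept without each library in turn.

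NOP14, the largest change of the processome, was at 38.6 and 45.1 TPM with and 21.7 and 26.9 TPM without glucose in WT. BACH1 KO cells had 27.2, 66.6 and 59.4 TPM with and 22, 34.0 and 34.4 TPM without glucose. All 5 clones were lower without glucose, but KO clone 1 with glucose was within the range of the libraries without it. The log2 fold changes of -0.76 and -0.67 were not called (standard errors 0.38 and 0.31) and were called under the clone block (adjusted p = 0.00618 and 0.00358). UTP18 had the smallest change in WT. It was at 44.5 and 44.2 TPM with and 41.5 and 51.5 TPM without glucose in WT, and in KO at 40.2, 42.3 and 42.2 TPM with and 35.6, 40.6 and 44.1 TPM without glucose, and its direction differed between clones. UTP18, NOP10 and FBL, whose E-boxes are printed above, were chosen for display as genes without a call. Their lack of a call therefore says nothing about E-boxes.

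DKC1, NOP14, the helicase DDX10 and EBNA1BP2, a 60S factor, had a spread between clones at both glucose levels. KO clone 1 was the lowest of the 5 clones at both levels for DKC1, DDX10 and EBNA1BP2, and for NOP14 it was the lowest with glucose and second to WT clone 1 without. DDX10 was at 49.9 and 55.4 TPM with and 42.8 and 46.8 TPM without glucose in WT, and in KO at 42.7, 67.2 and 51.9 TPM with and 28.2, 57.1 and 48.9 TPM without glucose. EBNA1BP2 was at 213 and 238 TPM with and 187 and 206 TPM without glucose in WT, and in KO at 150.2, 292 and 292 TPM with and 134, 258 and 276 TPM without glucose. KO clones 2 and 3 had the most EBNA1BP2 mRNA at both levels, KO clone 1 the least, and the WT clones lay between. These genes were picked out after their values were seen. Without KO clone 1 at both levels, a fit added after the data were seen, 28 genes were lower in WT and 22 in KO. These counts stood beside 25.7% and 25.8% of all genes, and MYC stayed higher in both.

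Later 40S maturation had 2 of 6 genes lower in WT, LTV1 and TSR1, and 3 in KO, these and NAT10, beside 15.9% and 19.9% of all genes. LTV1, an assembly factor of the pre-40S particle, was at 39.9 and 41.7 TPM with and 23.0 and 29.1 TPM without glucose in WT. For the KO clones the values were 36.5, 38.5 and 39.8 TPM with and 27.2, 25.6 and 32.8 TPM without glucose. Every library without glucose was below every library with glucose of the same genotype. The log2 fold change was -0.64 in WT (adjusted p = 0.017 from limma) and -0.42 in KO (adjusted p = 0.0315 from limma). The WT call was lost in fits without WT clone 1 at either level or WT clone 2 at 4.5 g/liter (highest adjusted p 0.129), and the KO call without 6 libraries, WT clones 1 and 2 at 4.5 g/liter, KO clones 1 and 2 at 0 g/liter and KO clones 2 and 3 at 4.5 g/liter.

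NOB1, the nuclease that makes the last cut of the 18S RNA, was at 51.2 and 50.5 TPM with and 52.7 and 49.5 TPM without glucose in WT. In KO it was at 40.2, 44.1 and 54.0 TPM with and 50.7, 49.5 and 61.0 TPM without glucose. The WT groups overlapped (log2 fold change 0.01, 95% interval -0.34 to 0.35), and all 3 KO clones were higher without glucose (0.22, not called). Under the clone block NOB1 was called higher in KO (adjusted p = 0.041). TSR1 had log2 fold changes of -0.37 and -0.34, and the RNA acetyltransferase NAT10 -0.53 and -0.44. TSR1 lost its WT call without each of the 4 WT libraries and KO clone 2 at 4.5 g/liter (highest adjusted p 0.190) and its KO call without KO clone 2 at either level or clone 3 at 4.5 g/liter. NAT10 lost its KO call without 8 of the 10 libraries, all but KO clone 1 at 0 g/liter and KO clone 2 at 4.5 g/liter. Under the clone block, 4 of the 6 were lower in each genotype, beside 28.6% and 31.9% of all genes, and with median-ratio scaling none was.

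Of 42 other tested 40S assembly genes, 1 was higher and 11 were lower in each genotype, with medians of -0.23 and -0.145. The shares of all genes were 7.47% and 9.05% higher and 15.9% and 19.9% lower. The KO median of this list turned to 0.02 with median-ratio scaling and to 0.00 with quantile normalization. Under the clone block 18 and 16 were lower, beside 28.6% and 31.9% of all genes. With median-ratio scaling 4 and 4 were, beside 6.07% and 9.55%. RRP36, IMP3 and NOL11, all of the SSU processome, had log2 fold changes of -0.67, -0.79 and -0.58 in WT and -0.52, -0.62 and -0.53 in KO. The kinase RIOK3 rose by 1.03 in WT (adjusted p = 0.00686 from limma) and by 1.01 in KO on the log2 scale. The WT call of IMP3 was lost in fits without WT clone 2 at either level, that of NOL11 without these or WT clone 1 at 0 g/liter, and that of RIOK3 without WT clone 1 at 0 g/liter or WT clone 2 at 4.5 g/liter (highest adjusted p 0.0682).

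Of the 8 roles, 60S assembly held the most calls. Of its 17 genes, 12 were lower in WT and 11 in KO, beside 15.9% and 19.9% of all genes. All 17 had negative log2 fold changes in both, and the medians were -0.51 and -0.34. In WT, both libraries without glucose lay below both with glucose for all 17 genes, and in KO for 14, against the 50.6% and 27.7% of all genes. With median-ratio scaling, 7 and 5 of the 17 were lower, beside 6.07% and 9.55% of all genes. In that fit 16 were negative in each genotype, with medians of -0.33 and -0.18. Among 48 other tested 60S assembly genes, described below, 10 and 14 were lower as deposited and 2 and 4 with median-ratio scaling. The 17 genes thus do not stand for all 60S assembly genes.

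RRS1, which brings the 5S ribosomal RNA particle into the pre-60S, was at 31.7 and 32.9 TPM with and 14.3 and 15.7 TPM without glucose in WT. The KO clones held 28.6, 31.5 and 32.1 TPM with and 16.2, 14.3 and 15.6 TPM without glucose. The lowest library with glucose was above the highest without it. The log2 fold change was -1.06 in WT (standard error 0.12, adjusted p = 0.000783 from limma) and -0.96 in KO (standard error 0.10, adjusted p = 0.000299 from limma). On TPM + 1, the level without glucose was 0.480 times that with glucose in WT and 0.515 times in KO.

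URB2, a large nucleolar protein needed for early 60S particles in yeast, was at 10.5 and 9.86 TPM with and 3.86 and 4.0 TPM without glucose in WT. BACH1 KO cells had 7.88, 8.56 and 9.14 TPM with and 5.34, 3.44 and 4.33 TPM without glucose. It had the lowest TPM of the 56 genes and the largest negative log2 fold change in WT, -1.18 (adjusted p = 0.00295 from limma), with -0.84 in KO (adjusted p = 0.00357 from limma). RRP1B was at 21.8 and 21.9 TPM with and 11.1 and 10.6 TPM without glucose in WT. For the KO clones the values were 18.5, 20.1 and 22.2 TPM with and 12.4, 10.2 and 12.3 TPM without glucose, and the groups did not overlap (log2 fold changes -0.95 and -0.75). PPAN, a 60S assembly factor, had log2 fold changes of -0.81 and -0.58. A read-through transcript, PPAN-P2RY11, stood at 6.92% of the mean TPM of PPAN, and reads could be split between them.

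The PeBoW complex, which is needed for cell division as well as for the 60S, is made of PES1, BOP1 and WDR12. BOP1 had log2 fold changes of -0.76 and -0.59, PES1 -0.41 and -0.33, and WDR12 -0.28 and -0.28. BOP1 and PES1 were lower in both genotypes and WDR12 was not called (adjusted p = 0.115 and 0.0522 from limma), though it was under the clone block in both. The WT calls of BOP1 and PES1 were lost without each of the 4 WT libraries (adjusted p up to 0.164). The KO call of BOP1 was lost without KO clone 1 or 2 at 4.5 g/liter or clone 2 or 3 at 0 g/liter (highest adjusted p 0.0962), and that of PES1 without KO clone 2 at 0 g/liter or clone 3 at 4.5 g/liter (highest adjusted p 0.0721).

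The helicase DDX56 had log2 fold changes of -0.60 and -0.47, the histone chaperone GRWD1 -0.62 and -0.36, and MRTO4, which occupies the ribosomal stalk site of the pre-60S, -0.61 and -0.39. The WT calls of these 3 were lost without either WT clone at 4.5 g/liter, that of DDX56 also without WT clone 2 and that of MRTO4 also without WT clone 1 at 0 g/liter (highest adjusted p 0.0597). GRWD1 lost its KO call without KO clone 1 or 2 at 4.5 g/liter or clone 3 at 0 g/liter (highest adjusted p 0.0631). NIP7, WDR74 and DDX18 had smaller changes, of -0.40, -0.41 and -0.51 in WT and -0.26, -0.27 and -0.27 in KO, where DDX18 was not called. Their WT calls were lost without each of the 4 WT libraries (adjusted p up to 0.162). The KO call of NIP7 was lost in each of the 10 fits without 1 library, and that of WDR74 in 8, all but those without KO clone 1 at either level (adjusted p up to 0.134). BRIX1, the smallest change in WT, was at 75.7 and 73.8 TPM with and 71.1 and 67.1 TPM without glucose in WT, and in KO at 72.6, 68.3 and 73.1 TPM with and 60.6, 56.4 and 73.1 TPM without glucose, with log2 fold changes of -0.11 and -0.18 (not called).

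Of 48 other tested 60S assembly genes, 3 were higher in each genotype, 10 were lower in WT and 14 in KO, with medians of -0.33 and -0.25. All genes tested had 7.47% and 9.05% called higher and 15.9% and 19.9% called lower. Among this list were genes that rose. RSL24D1, which holds the place of a ribosomal protein in the pre-60S, was at 31.9 and 30.5 TPM with and 63.9 and 64.6 TPM without glucose in WT. In KO it was at 25.8, 28.7 and 32.6 TPM with and 59.6, 60.4 and 63.1 TPM without glucose, with no overlap and log2 fold changes of 1.02 and 1.05 (adjusted p = 0.000983 and 0.000209 from limma). ZNF622, which acts on late 60S particles, rose by 1.48 and 1.41 on the log2 scale, and both genes kept their calls without each library in turn. MYBBP1A had -0.68 and -0.35, and PAK1IP1 -0.71 and -0.62. The WT call of MYBBP1A was lost in fits without WT clone 1 at 4.5 g/liter or clone 2 at 0 g/liter, its KO call without 8 of the 10 libraries, and the WT call of PAK1IP1 without each of the 4 WT libraries (adjusted p up to 0.118). With the block, 8 were higher in each genotype and 22 and 21 were lower, beside 12.4% and 14.6% higher and 28.6% and 31.9% lower of all genes. With median-ratio scaling 4 and 6 were higher and 2 and 4 lower. In that fit, 1364 and 1703 of all 13418 genes were higher, and 6.07% and 9.55% were lower.

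**Figure D3:**
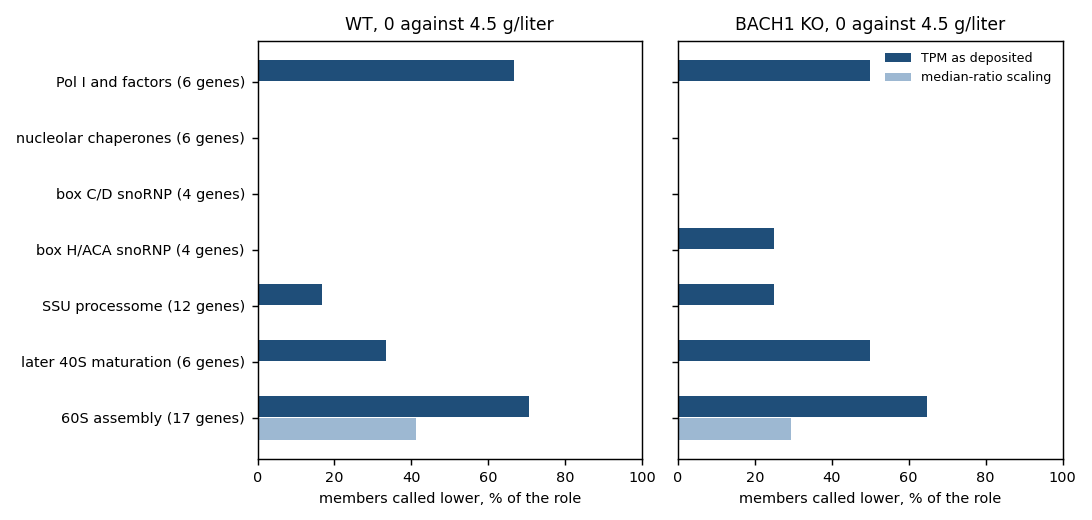
Share of the genes of each role called lower at 0 against 4.5 g/liter (horizontal axis, percent of the role) in WT and BACH1 KO, for TPM as deposited (dark bars) and after median-ratio scaling (light bars). As deposited, 12 and 11 of 17 60S assembly genes and 4 and 3 of 6 Pol I genes were lower, and after scaling only 60S assembly genes were, 7 and 5 of 17. Of all genes tested, 15.9% and 19.9% were lower as deposited and 6.07% and 9.55% after scaling.

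Genes that process the 5S and 5.8S ends and the RNA exosome had 1 of 19 higher in each genotype, and 4 lower in WT and 5 in KO, with medians of -0.28 and -0.19. For all genes the shares were 7.47% and 9.05% called higher and 15.9% and 19.9% called lower. Under the clone block 8 and 7 were lower, beside 28.6% and 31.9% of all genes. With median-ratio scaling 1 and 3 were, beside 6.07% and 9.55%, with medians of -0.09 and -0.02. EXOSC2, EXOSC9 and EXOSC10, subunits of the exosome, had log2 fold changes of -0.68, -0.70 and -0.49 in WT and -0.65, -0.64 and -0.47 in KO, while its nuclease DIS3 rose by 0.56 and 0.47. All 4 kept their KO calls without each library in turn. In WT, EXOSC2 lost its call without WT clone 2 with glucose, EXOSC10 and DIS3 lost theirs without 3 of the 4 WT libraries, all but WT clone 2 and clone 1 at 0 g/liter respectively, and EXOSC9 without each of them (adjusted p up to 0.114).

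Of 20 growth genes outside the nucleolus that are known to be bound by MYC, 2 were higher and 4 lower in each genotype, with medians of -0.28 and -0.21. Both counts are near the shares of all genes, 7.47% and 9.05% called higher and 15.9% and 19.9% called lower. With the block 10 and 9 were lower, beside 28.6% and 31.9% of all genes. With median-ratio scaling 2 and 3 were, beside 6.07% and 9.55%, with medians of -0.09 and -0.04. HSPE1 and HSPD1, the mitochondrial chaperonins, rose by 1.74 and 1.45 in WT and by 1.52 and 1.51 in KO. PAICS, of purine synthesis, had -0.69 and -0.62, and SHMT1, of one-carbon metabolism, -0.77 and -0.66. In WT, HSPE1 lost its call without WT clone 1 with glucose, HSPD1 without WT clone 2 at either level, and SHMT1 without each of the 4 WT libraries (adjusted p up to 0.113). PAICS kept its call in both genotypes.

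Of 17 genes of nucleolar stress and growth control, 5 were higher and 4 lower in each genotype, with medians of 0.175 and 0.15. Among all genes, 7.47% and 9.05% were higher and 15.9% and 19.9% lower. Under the clone block 6 and 8 were higher and 5 and 5 lower, beside 12.4% and 14.6% higher and 28.6% and 31.9% lower. With median-ratio scaling 5 and 6 were higher and 1 and 2 lower. In that fit, 1364 and 1703 of all 13418 genes were higher, and 6.07% and 9.55% were lower. The list's median in WT turned to -0.04 with quantile normalization. CDKN1A, the p21 cell cycle inhibitor, was at 35.9 and 36.0 TPM with and 382 and 347 TPM without glucose in WT. The KO clones held 36.0, 24.9 and 22.6 TPM with and 238, 365 and 169 TPM without glucose, with no overlap and log2 fold changes of 3.31 and 3.12 (adjusted p = 0.000408 and 0.000107 from limma). SESN2, an inhibitor of mTORC1, rose by 2.69 and 2.49. Both kinases of that pathway were lower, MTOR with -0.59 and -0.56, and RPS6KB1, the S6 kinase, with -0.60 and -0.58. CDKN1A and SESN2 kept their calls without each library in turn. In WT, RPS6KB1 lost its call without WT clone 1 with glucose (adjusted p = 0.0510) and MTOR without each of the 4 WT libraries (adjusted p up to 0.0887). With median-ratio scaling, RUVBL2, EXOSC9, EXOSC10, MYBBP1A, GTF3C1, GTF3C2, TAF1B and MTOR were no longer called in WT, nor RUVBL2, MYBBP1A, GTF3C2 and TAF1B in KO, and no gene named from these lists turned its direction.

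Each clone was also compared with itself, as a description. Of the 56 genes, 39 were lower without glucose in all 5 clones and 3 were higher in all 5, MYC, RRN3 and NOP58. Another 5 were lower in 1 clone only, NPM3, NHP2, NOP10, NOB1 and RRP12. These counts were not made over all genes, so they do not set the 56 apart. The median log2 change of the 56 genes was -0.33 and -0.33 in WT clones 1 and 2 and -0.24, -0.28 and -0.28 in KO clones 1, 2 and 3, beside medians of all genes from -0.18 to -0.11. Across the 56 genes, the responses of WT and KO cells had a Pearson correlation of 0.959 and a Spearman correlation of 0.937. The points are genes, which are not independent, and the 2 responses share no library.

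The summed TPM of the 56 genes was 6559 and 6791 in the WT clones with glucose and 5814 and 6183 without, and 6078, 6296 and 6780 in KO with glucose and 5512, 5795 and 6323 without. NPM1 and NCL hold much of this sum. In the same libraries the summed share of cytosolic ribosomal protein genes went from 9.78 and 9.77% to 10.8 and 10.4% in WT, and from 9.51, 8.81 and 8.77% to 10.4, 9.32 and 10.3% in KO, so that it was higher without glucose in each clone. Mitochondrially encoded genes went from 27.1 and 26.1% to 24.7 and 23.3% in WT and from 29.7, 26.9 and 27.9% to 29.1, 23.7 and 22.4% in KO. The part of these shifts in the results for single genes was not tested beyond the rescaled fits. After rescaling without the mitochondrially encoded genes, 23 of the 56 were lower in WT and 28 in KO, beside 19.1% and 25% of all genes.

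**Figure D4:**
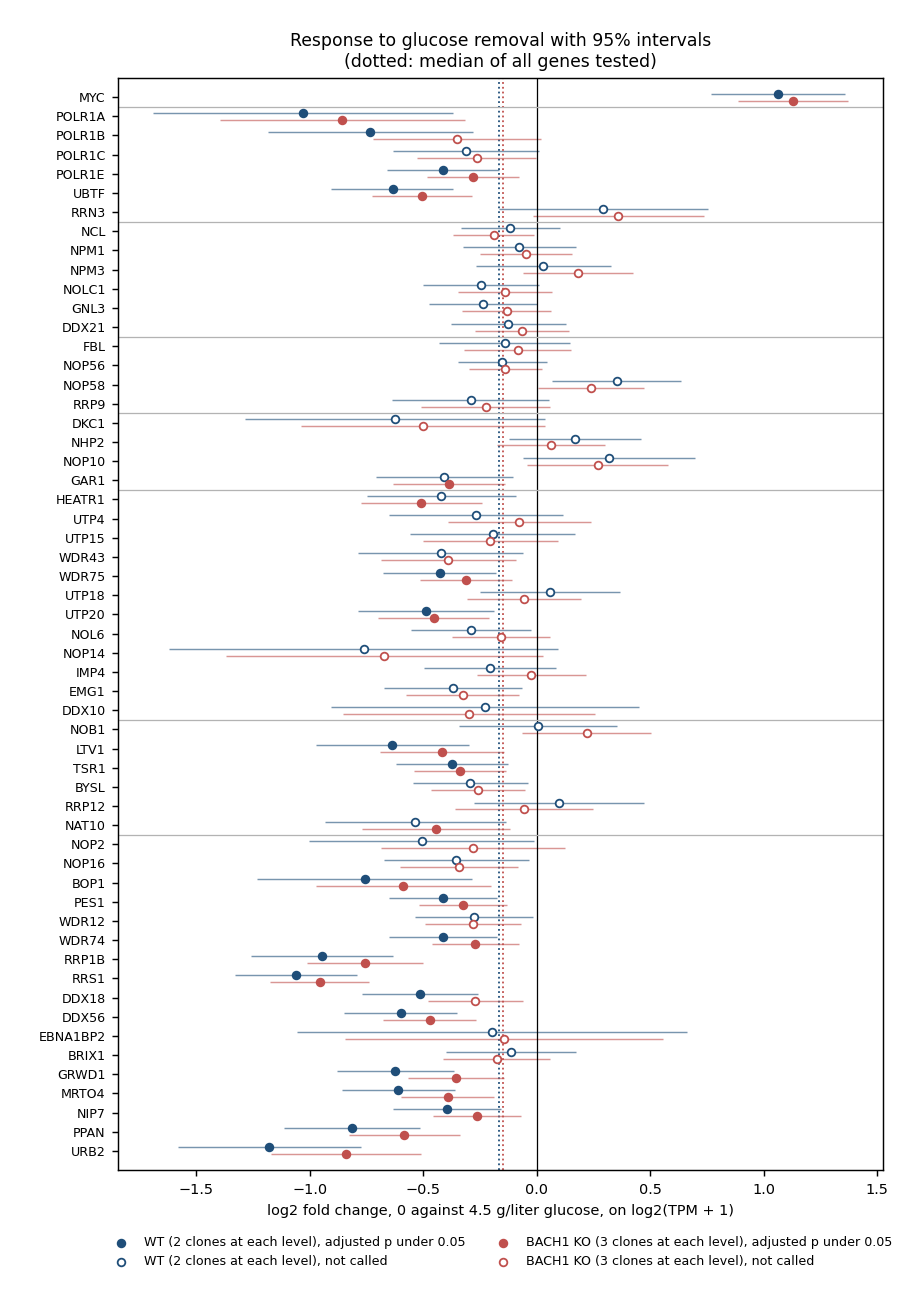
Log2 fold change of each of the 56 genes at 0 against 4.5 g/liter glucose on log2(TPM + 1), with 95% intervals from limma, in WT (blue, 2 clones at each level) and BACH1 KO (red, 3 clones at each level). Filled points are called at an adjusted p under 0.05, and dotted lines are the medians of all genes tested (-0.17 and -0.15). The points of both genotypes lie close together for most genes, and MYC stands alone on the right at 1.06 and 1.13.

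Loss of BACH1 gave no called change in any of the 56 genes. At 4.5 g/liter, limma called 0 of 56, beside 0.0373% of all genes called higher and 0.0373% called lower, and at 0 g/liter 0 of 56, beside 0.00745% and 0.0298%. At an unadjusted p under 0.05, 5 genes differed with glucose, beside 3.17% of all genes, and 1 without, beside 2.90%. With glucose they were POLR1C, IMP4, BYSL, GRWD1 and NIP7, all lower in KO, with log2 fold changes of -0.32, -0.31, -0.28, -0.24 and -0.22, and without glucose it was BYSL, with -0.24. These were named after their values were seen. The median log2 fold change of the 56 genes was -0.11 with glucose (all genes -0.03) and -0.03 without (all genes -0.02), and the second turned to 0.003 with quantile normalization. With glucose, all KO clones lay below both WT clones for 22 genes and above for 1, GAR1, beside 14.6% and 6.30% of all genes. Without glucose they lay below for 5 and above for 1, DDX18, beside 7.98% and 5.69%. Each genotype comparison shares its libraries with the glucose comparisons.

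The response to glucose did not differ detectably between the genotypes. The test of the interaction called 0 of 56 genes, beside 0% of all genes higher and 0.00745% lower, and 0 had an unadjusted p under 0.05, beside 1.01% of all genes. Under the clone block it called 0, beside 0% and 0.0224%. GRWD1 had the smallest p, 0.102, with a difference of 0.27 (95% interval -0.06 to 0.60). The median difference was 0.09 (all genes 0.02), with 45 of the 56 positive, that is, less negative or more positive in KO than in WT. This rested on few libraries: without WT clone 1 at 0 g/liter the median was 0.04 with 21 negative, and without KO clone 3 at 0 g/liter it was 0.045 with 22 negative. Across the 56 genes the 95% intervals reached from -1.05 for EBNA1BP2 to 1.2 for NOP14, so that differences of this size were not detectable for the genes that vary most between clones.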

How the data were processed

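RNA-seq of 10 libraries was analysed, 1 per clone and glucose level. The authors enriched poly-A mRNA, prepared libraries with TruSeq chemistry, pseudoaligned reads with kallisto 0.44.0 to GRCh38.p12 and deposited TPM per gene symbol. The submitters' processing notes also name bcl2fastq 2.19 and DESeq2, and no counts were used here. The table held 36459 symbols, and 27 that a spreadsheet had turned into dates were removed. limma 3.58.1, run in R 4.3.3, was fitted to log2(TPM + 1) with a mean per group and a trended eBayes prior (6 residual degrees of freedom). Tests were two-sided, adjusted by Benjamini-Hochberg over 13418 genes, and called at an adjusted p under 0.05. Fold changes on this scale understate low genes. P-values of the main fit measure the spread between clones, pooled over all groups of both genotypes. Those of the clone block measure how much the change within a clone varies between clones.

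Within a genotype, equal clone numbers at the 2 glucose levels are the same clone and pair the libraries. After removal of group means, the pairs had correlations of 0.609, 0.426 and 0.507 in KO and 0.099 in WT. Equal numbers in WT and KO are different clones. The fit was tested on simulated data with independent libraries, so that test does not cover the pairing of clones.

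The members and gene lists were chosen with earlier results of these data known. By rule, values per library are given for MYC, for the largest and smallest change in WT within each role of 4 or more genes, for members called higher in any comparison or called between genotypes, and for the most abundant member, and at most 4 called genes with the smallest p in WT are named from each other list. A gene that this rule selects is not reported here. Further genes (such as UBTF, POLR1B, RRS1, RRP1B, GAR1, DDX10 and EBNA1BP2) were chosen once their values were known. The alternatives were other pseudocounts and filters, median-ratio scaling, quantile normalization, rescaling without mitochondrial genes, the clone as a block, eBayes without trend, a stricter threshold and leaving out each library. Of 19 listed snoRNA host genes, 0 were matched and they were not analysed here. Promoter sequences came from RefSeq.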

Additional observations from a re-analysis of the deposited data

How the results depend on the processing

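MYC kept its calls in both genotypes under every alternative run. The count of members called lower depended on scaling, on the threshold and on single libraries of either genotype. With median-ratio scaling 7 were lower and 2 higher in WT (median -0.175) and 5 lower and 2 higher in KO (median -0.111), and with quantile normalization 9 and 2 (median -0.218; 16.1% lower, beside 8.72% of all genes) and 7 and 2 (median -0.150; 12.5%, beside 12.3%), the second higher gene being NOP58. At an adjusted p under 0.01, 8 were lower in WT (14.3%, beside 4.89% of all genes) and 6 in KO (10.7%, beside 8.94%). With the replicate block (clone pairing), 32 were lower and 2 higher in WT and 31 and 2 in KO, and all 20 and 21 genes called without the block were among them. Without KO clone 1 at both levels, chosen after seeing the data, 3 were higher in WT and 2 in KO, with NOP10 among them in both. Of all 13332 genes in that fit, 1542 and 1671 were higher. Without 1 library at a time, 4 to 24 were lower and 1 to 2 higher in WT (median -0.399 to -0.302), and 10 to 22 lower and 1 to 3 higher in KO (median -0.317 to -0.245). The genotype comparisons and the interaction stayed at 0 calls.

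The number of members with a negative value went from 47 to 41 in WT and from 49 to 37 in KO with median-ratio scaling, and to 46 and 45 with quantile normalization. Among the members followed through every alternative, signs turned only where no call stood. With median-ratio scaling these included NPM1 (0.115), NCL (0.075), FBL (0.049) and BRIX1 (0.076) in WT and NPM1 (0.119), NOLC1 (0.027), FBL (0.082) and UTP18 (0.108) in KO. With quantile normalization they included BRIX1 (0.022) in WT and UTP18 (0.090) in KO, without mitochondrial genes NPM3 (-0.020) and NOB1 (-0.043) in WT, and without KO clone 1 UTP18 (0.002) in KO. Without 1 library at a time, NPM3 was as low as -0.061 and -0.049, NOB1 ranged from -0.038 (and -0.005) to 0.05 and UTP18 from -0.094 to 0.212 in WT, and UTP18 from -0.125 to 0.026 in KO. The cause was not tested. Depth is unknown, so the sampling error of low genes such as URB2 is too.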
